A study of Mus musculus with 3 samples.

Results

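Kruppel-like factors (KLFs) are DNA-binding proteins that carry a cluster of zinc fingers at the end of the protein and bind GC-rich and CACCC sequences. The 8 members described here are Klf2, Klf4, Klf6, Klf7, Klf9, Klf10, Klf13 and Klf15, found by symbol among the 32285 genes of the deposited matrices, each with 1 row. They were followed across cell classes of the mouse hypothalamus in 3 single-cell RNA libraries, 1 for each group, from male mice aged 8 weeks. PF mice were the control whose food was matched to what the heated mice ate, HS mice were exposed to heat, and QS mice were taken in recovery after the exposure. Mice of a further condition named RT were not analysed here, and no source used here gives the strain, the number of mice per library, the hour of collection or how long exposure and recovery lasted. The series asks whether heat leaves lasting differences in hypothalamic cells.

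The family falls into groups with different known roles. Klf2 and Klf4 are induced in endothelium by blood flow through the kinases MEKK2, MEKK3 and ERK5 and the factor MEF2, and there they favour a quiet, non-thrombotic vessel wall. In macrophages and microglia the same pair restrains inflammatory genes. Klf6 and Klf10 respond quickly to injury and, for Klf10, to TGF-beta, and together with Klf2 and Klf4 they behave in many cells as early response genes. Klf9 and Klf15 are induced by glucocorticoids, the adrenal hormones of the stress response, and Klf9 also by thyroid hormone in brain. Klf15 steers amino acid and glucose use. Klf13 is a partner of Klf9 in the same subfamily, and Klf7 is known for its part in neuronal outgrowth.

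Each library held between 11720 and 12836 barcodes and between 93295920 and 103891747 UMIs (the molecular tags that mark single RNA copies), and 11509 to 12642 cells were kept, with medians of 6367 (PF), 6510.5 (HS) and 6411 (QS) UMIs. Cells were put into classes by marker genes and carry names ending in "-like" because they rest on RNA alone. A level is a gene's summed UMIs in a class, scaled to a total of 1000000 UMIs for that class (CPM). Every ratio is a ratio of CPM, followed by its exact conditional binomial 95% interval, which covers counting error only. With 1 library in each group there is no replicate check, no test was made, and differences between mice or captures cannot be told apart from differences between conditions. Hypothalamus-specific tanycyte-like cells, which line the third ventricle, numbered 114 in PF against 329 in HS and 172 in QS, while only 46, 38 and 59 cells were neuron-like, so the data describe mainly vascular, glial and immune cells. Between 37 and 51 barcodes occurred in both libraries of a pair, none with equal UMI totals.

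Free RNA in droplets sets a floor under every level. In astrocyte-like cells the endothelial genes Cldn5, Flt1 and Ly6c1 together stood at 6.81 to 7.48% of their level in the whole library, and the microglial genes P2ry12 and Tmem119 at 5.23 to 12.6%. In oligodendrocyte-like cells the same sets stood at 6.54 to 8.57% and 8.55 to 10.9%. In astrocyte-like cells the 3 members Klf2, Klf4 and Klf6 lay within the range of these sets, with Klf2 at 7.65 to 9.91%, Klf4 at 7.43 to 11.8% and Klf6 at 10.7 to 11.8% of the whole library. In oligodendrocyte-like cells they reached slightly above it, at 8.75 to 11.1%, 8.86 to 12.1% and 11.1 to 12.99%. Klf9 in microglia-like cells (7.99 to 9.28%) and Klf15 in endothelial-like (8.88 to 11.5%) and microglia-like cells (7.09 to 9.84%) were likewise at that level. Such values are read as background and not as expression, and the oligodendrocyte-like values of Klf2, Klf4 and Klf6 are too close to it to be read as expression.

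The stretches just upstream of the genes are shown for the 5 members whose levels ranged most widely over cell classes. In GENCODE M21 on GRCm38 (mm10), the build of the files, the members lie on 8 chromosomes: Klf7 on 1, Klf4 on 4, Klf15 on 6, Klf13 on 7, Klf2 on 8, Klf6 on 13, Klf10 on 15 and Klf9 on 19. The windows are the 250 bases before the RefSeq start on GRCm38.p6, written 5′ to 3′ on the gene's strand, with the matched motif in capitals. RefSeq windows were found for 7 of the 8 members, Klf10 being the exception. The capitals mark a MEF2 box in Klf2, E-boxes (CACGTG) in Klf4, Klf6 and Klf15, and a heat shock element (searched as GAANNTTC and TTCNNGAA) in Klf15, while none of those motifs matched in Klf9.
Klf2 (chr8:72318812-72319061, plus strand): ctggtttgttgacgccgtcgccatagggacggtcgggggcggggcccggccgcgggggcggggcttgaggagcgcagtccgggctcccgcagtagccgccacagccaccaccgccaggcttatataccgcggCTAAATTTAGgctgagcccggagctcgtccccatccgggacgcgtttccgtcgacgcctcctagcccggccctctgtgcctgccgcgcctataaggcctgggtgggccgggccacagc
Klf4 (chr4:55532476-55532725, minus strand): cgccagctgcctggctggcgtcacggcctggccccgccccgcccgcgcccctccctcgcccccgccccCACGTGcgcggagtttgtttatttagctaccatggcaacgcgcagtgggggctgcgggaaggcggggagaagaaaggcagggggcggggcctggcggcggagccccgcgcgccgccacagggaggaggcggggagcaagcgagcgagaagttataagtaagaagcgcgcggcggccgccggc
Klf6 (chr13:5861239-5861488, plus strand): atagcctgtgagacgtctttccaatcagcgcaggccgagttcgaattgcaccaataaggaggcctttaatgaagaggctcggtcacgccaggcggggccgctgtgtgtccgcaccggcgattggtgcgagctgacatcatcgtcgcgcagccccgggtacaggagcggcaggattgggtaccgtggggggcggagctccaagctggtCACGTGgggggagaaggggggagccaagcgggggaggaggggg
Klf9 (chr19:23140976-23141225, plus strand): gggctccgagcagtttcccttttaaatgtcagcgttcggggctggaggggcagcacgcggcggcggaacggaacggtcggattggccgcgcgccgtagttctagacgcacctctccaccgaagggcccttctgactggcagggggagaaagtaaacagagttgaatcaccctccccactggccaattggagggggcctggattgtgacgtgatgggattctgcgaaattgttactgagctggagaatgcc
Klf15 (chr6:90462326-90462575, plus strand): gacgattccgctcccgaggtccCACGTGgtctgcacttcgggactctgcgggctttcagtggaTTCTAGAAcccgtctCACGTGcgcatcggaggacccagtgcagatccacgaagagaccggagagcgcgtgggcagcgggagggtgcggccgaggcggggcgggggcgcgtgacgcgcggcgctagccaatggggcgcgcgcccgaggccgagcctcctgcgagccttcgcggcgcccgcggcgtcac
Both strands were searched, and positions count backwards from the start site. The MEF2 box of Klf2 lay at -118 to -109, and 0.509% of 32817 windows of the same length held such a box. MEF2 is the factor through which ERK5 acts on this gene in endothelium. The E-box, which clock and MYC-family proteins can bind, occurred in 3 of the 7 members against 6.02% of all windows, at -182 to -177 in Klf4, at -43 to -38 in Klf6 and at both -228 to -223 and -172 to -167 in Klf15. The heat shock element of Klf15 lay between its E-boxes at -187 to -180, and 12.8% of windows held one. The GC box (GGGCGG), a KLF and SP binding sequence, was in 6 of the 7 (32.7% of windows) and the CACCC box (searched as CCACCC) in 3 of the 7 (28.1%). The member windows were 59.2% to 74% G and C against a median of 52.4%, a property that GC boxes and E-boxes share. The full glucocorticoid site (AGAACA and TGTTCT with 3 bases between them) and its TGTTCT arm alone matched in 0 of the 7, against 0.00914% and 16.1% of windows. The cAMP response element (TGACGTCA, 1.55%), the D-box (TTATGTAA, 0.817%) and the CArG box (1.47%) also matched in 0 of the 7. A match is a description of letters and not of binding, and these windows leave out distal enhancers.

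By mean level Klf2 RNA was highest in border-associated macrophage-like, endothelial-like, vascular smooth muscle-like and microglia-like cells, among classes of at least 50 cells per library. In endothelial-like cells it stood at 3444 CPM in PF against 3169.7 in HS and 3225 in QS. Its level was higher still in QS among border-associated macrophage-like cells, the macrophages of meninges and perivascular spaces, with 2783 CPM in PF against 3052 in HS and 4917 in QS. Over all classes in which at least 50 cells were found in each library, the order by mean level ran from border-associated macrophage-like and endothelial-like cells, whose ranges over libraries overlapped, through vascular smooth muscle-like (2319.5 CPM in PF against 2075 in HS and 2486 in QS) to microglia-like cells (1971 CPM in PF against 1994 in HS and 1954 in QS). Fibroblast-like, T or NK-like and tanycyte-like cells followed with overlapping ranges, then pericyte-like and ependymal-like cells, which also overlapped. The fibroblast-like range (1696 CPM in PF against 2017 in HS and 1028 in QS) overlapped with that of microglia-like cells. Endothelial-like cells held 58.1 to 64.1% of the Klf2 UMIs of all classed cells. After every cell had been thinned to 2000 UMIs, Klf2 was seen in 97.8% in PF against 97.5% in HS and 95.2% in QS of endothelial-like cells (unthinned 98.02%, 97.9% and 95.9%) and in 26.9% in PF against 21.5% in HS and 17.9% in QS of astrocyte-like cells, where it is at background (medians of 5814, 5913 and 5505 and of 3564, 3928 and 3726 UMIs per cell before thinning). Thinning left out 584, 464 and 416 endothelial-like and 191, 186 and 241 astrocyte-like cells as too shallow.

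Klf4 followed a similar order, with a correlation to Klf2 of 0.89 over the 33 points of 11 classes in 3 libraries. Endothelial-like cells had 1241 CPM in PF against 1254 in HS and 1416 in QS, border-associated macrophage-like cells 944 CPM in PF against 984 in HS and 1601 in QS, and vascular smooth muscle-like cells 854 CPM in PF against 902 in HS and 1109 in QS. The ranges of these 3 classes overlapped from neighbour to neighbour, and all lay above microglia-like cells (723 CPM in PF against 734 in HS and 812 in QS). Klf4 parted from Klf2 in the mural cells of the capillary: pericyte-like cells kept 568 CPM in PF against 558 in HS and 542 in QS, which is 74.8 to 80.4% of the whole-library level, whereas Klf2 there was at 29.1 to 35.7%.

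**Figure D1:**
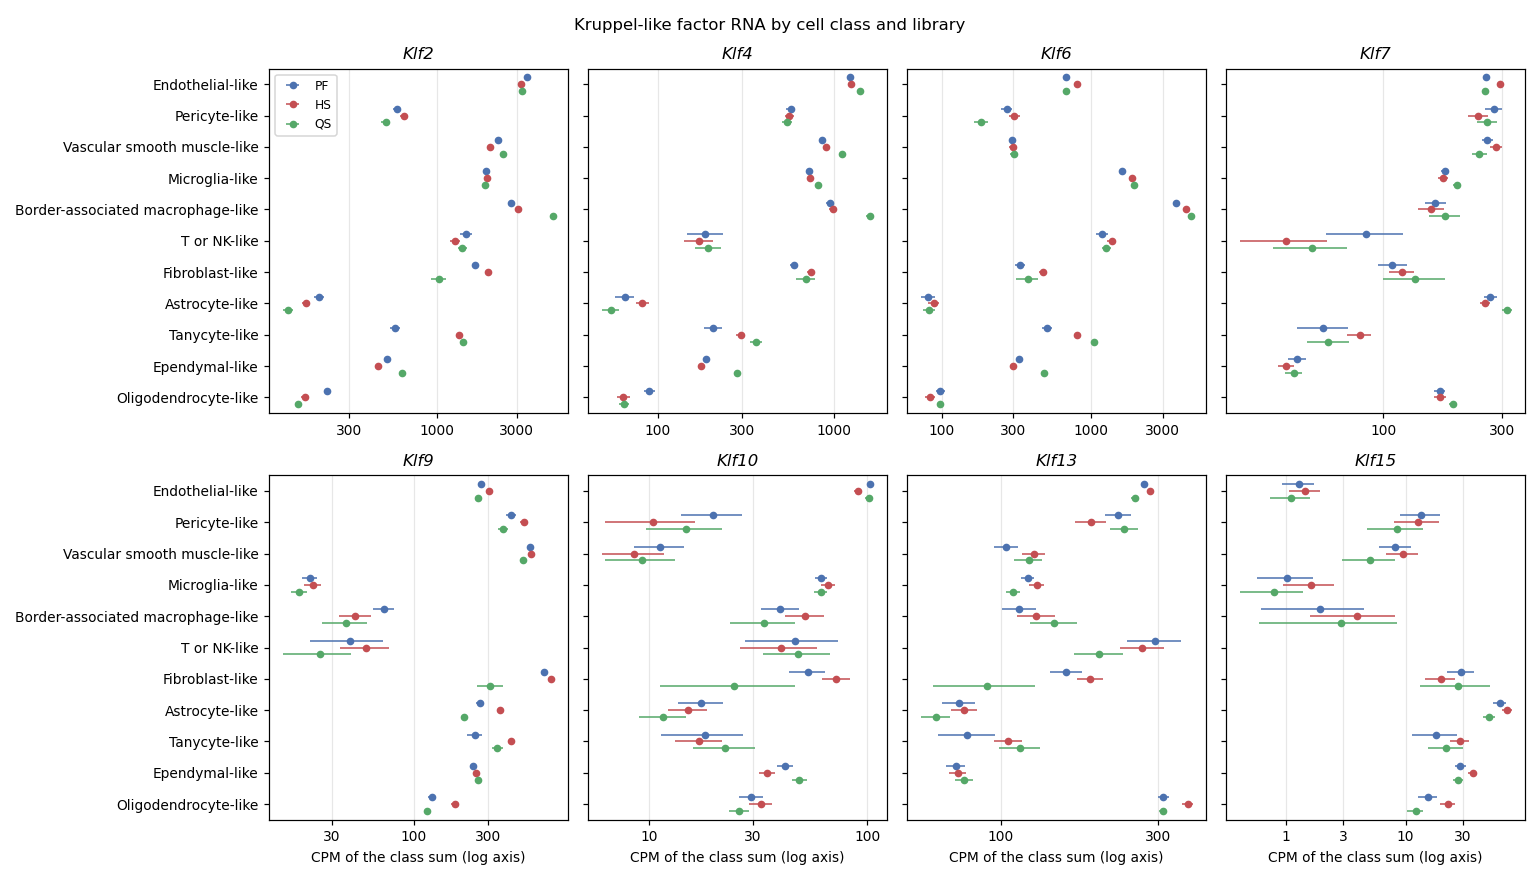
Level of each member (CPM of the class sum, log axis) in 11 marker-gated classes; blue, red and green points are the PF, HS and QS libraries and bars are exact Poisson 95% intervals. By mean level Klf2 and Klf4 are highest in endothelial-like, border-associated macrophage-like and vascular smooth muscle-like cells. Klf6 is highest in macrophage-like and microglia-like cells and Klf15 in astrocyte-like cells. Klf15 in T or NK-like cells is 0 and not drawn.

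Within the endothelium the members divided by vessel segment. Endothelial-like cells with at least 2 segment markers were called arterial, capillary, venous or fenestrated, and 26.5% to 29.5% stayed without a segment. Klf4 was highest in arterial cells, with 1497, 1585 and 1777 CPM in PF, HS and QS, against 1239, 1201 and 1293 CPM in capillary and 1019, 987 and 1297 CPM in venous cells. Klf9 had the same arterial rank among the 3 larger segments, with 351, 412 and 319 CPM in arterial and 228, 250.2 and 226 CPM in venous cells. Klf13 had that order too, from 343, 335 and 302 CPM in arterial to 184, 207 and 181 CPM in venous cells. Klf10 ran the other way: arterial cells had 71.1, 66.96 and 81.7 CPM and venous cells 151, 126 and 145 CPM. Klf6 was lowest in capillary cells among these 3 in each library (581, 707 and 564 CPM). The order held in 3 of 3 libraries for each of these statements. Fenestrated cells, from vessels without a blood-brain barrier, had less Klf2 than every other segment (1685, 2070.0 and 2305 CPM) and more Klf7 (487, 423 and 475 CPM), but QS held only 11 such cells, 0.337% of its endothelial-like cells, against 71 in PF and 87 in HS. Between libraries, the arterial, capillary and venous levels of all 7 members with at least 30 UMIs differed by a ratio of less than 1.5. In fenestrated cells Klf4 passed the same limit in QS against PF (1.70 (1.37 to 2.09)) and against HS (1.83 (1.47 to 2.26)) and Klf6 in QS against PF (1.67 (1.10 to 2.46)), all resting on the 11 cells of QS.

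**Figure D2:**
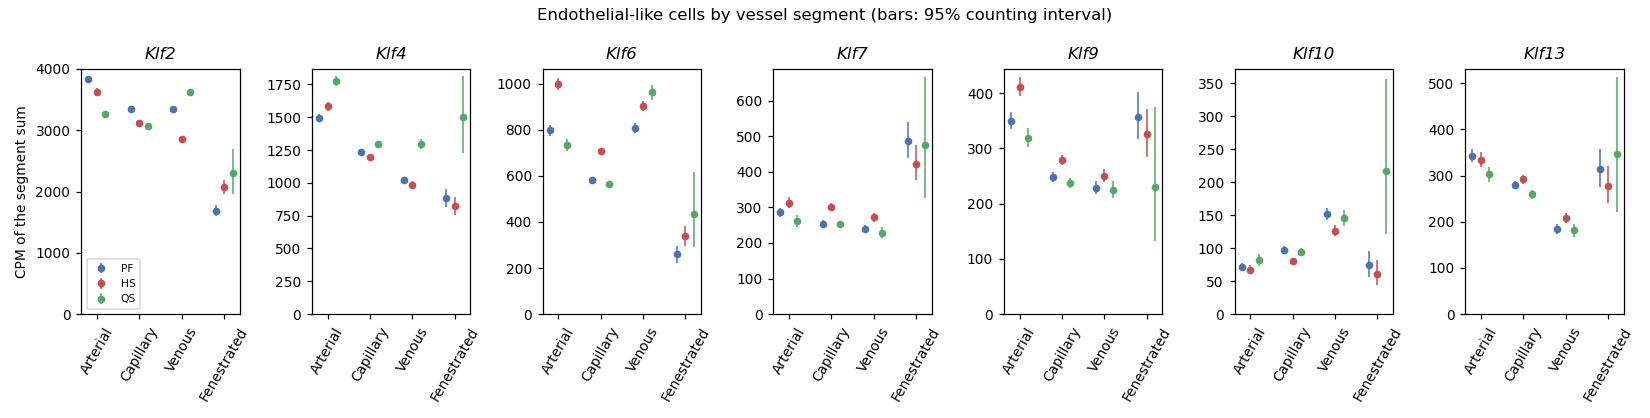
Level of 7 members (CPM of the segment sum, linear axis) in 4 segments of endothelial-like cells, with PF in blue, HS in red, QS in green and exact Poisson 95% intervals. In each library Klf4 is highest in arterial cells and Klf10 rises from arterial through capillary to venous cells. The wide green bars of the fenestrated segment come from 11 cells.

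Klf6 was the member most tied to immune cells. Border-associated macrophage-like cells had 3711 CPM in PF against 4303 in HS and 4622 in QS, above microglia-like cells (1617 CPM in PF against 1871 in HS and 1926 in QS), and these in turn stood above T or NK-like cells (1185 CPM in PF against 1372 in HS and 1265 in QS). The ranges of these 3 classes did not overlap. Endothelial-like cells had 682 CPM in PF against 805 in HS and 673 in QS, and the mural classes less. Klf10, a TGF-beta inducible repressor, was highest in endothelial-like cells (104 CPM in PF against 90.6 in HS and 102 in QS), without overlap with the next class by mean level. That class was microglia-like cells (61.6 CPM in PF against 66.2 in HS and 61.2 in QS), which overlapped with fibroblast-like cells (53.4 CPM in PF against 72.2 in HS and 24.7 in QS). The lowest Klf10 levels were in vascular smooth muscle-like cells (11.2 CPM in PF against 8.59 in HS and 9.27 in QS).

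The glucocorticoid-induced pair had other homes. Klf9 was spread over mural, fibroblast-like and glial classes. Vascular smooth muscle-like cells had 557 CPM in PF against 565 in HS and 502 in QS, pericyte-like cells 421 CPM in PF against 511 in HS and 373 in QS and astrocyte-like cells 266 CPM in PF against 357 in HS and 212 in QS. Neighbours in this order overlapped from fibroblast-like cells down to endothelial-like cells. In microglia-like cells Klf9 was at background (21.6 CPM in PF against 22.6 in HS and 18.4 in QS). Klf15 was highest in astrocyte-like cells (60.9 CPM in PF against 69.9 in HS and 49.4 in QS), clear of ependymal-like cells (28.7 CPM in PF against 36.2 in HS and 27.5 in QS), the ciliated lining of the ventricles. Oligodendrocyte-like cells had 15.3 CPM in PF against 22.4 in HS and 12.1 in QS, and T or NK-like cells 0 UMIs. Thinned to 2000 UMIs per cell, Klf15 was seen in 11.2% in PF against 13.9% in HS and 10.5% in QS of astrocyte-like cells (unthinned 20.1%, 25.1% and 18.03%) and in 0.169% in PF against 0.267% in HS and 0.151% in QS of microglia-like cells, with medians before thinning of 3564, 3928 and 3726 and of 7848, 7756 and 8187 UMIs.

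Klf13 and Klf7 were the evenest members. Klf13 was highest in oligodendrocyte-like cells (310.4 CPM in PF against 367 in HS and 309 in QS) and had its lowest mean level in astrocyte-like cells (74.5 CPM in PF against 77.4 in HS and 63.5 in QS), whose range overlapped with that of ependymal-like cells (72.8 CPM in PF against 73.9 in HS and 77.4 in QS), a ratio of mean levels of 4.58 between the top and bottom class. For Klf7 that ratio was 6.57, from astrocyte-like cells (271 CPM in PF against 258 in HS and 315 in QS), which overlapped with all 3 vessel classes, to ependymal-like cells (44.6 CPM in PF against 40.4 in HS and 43.3 in QS). The same ratio was 10.2 for Klf10, 19.5 for Klf4, 21.8 for Klf2, 28.2 for Klf9 and 50.1 for Klf6. For Klf15 no such ratio is given because T or NK-like cells had 0 UMIs.

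The genes whose levels ran most like each member were found by Pearson correlation of log2(CPM + 10) over the same 33 points, among 8975 genes. The points share libraries, and the values are descriptions. For Klf2 they were Ifrd1 (0.93), Zfp36 (0.92), Ier2 (0.92), and for Klf4 Ier3 (0.96), Jun (0.96), Zfp36 (0.95). Zfp36, Ier2, Ier3 and Jun are immediate early genes, which cells switch on within minutes of a stimulus. For Klf6 they were Zfp622 (0.93), Cited2 (0.91), Zswim6 (0.91). For Klf9 they were Nedd4 (0.94), Rbfox2 (0.92), Cttn (0.92) and for Klf15 Abat (0.96), Arhgap21 (0.94), Tulp3 (0.94), of which Abat breaks down the transmitter GABA. Klf7 ran with Reep3 (0.83), Lifr (0.80), Rnpepl1 (0.78), Klf10 with Ipmk (0.83), Ankrd33b (0.83), Ly6e (0.82), and Klf13 with Dync1li1 (0.88), Cdv3 (0.85), Ndfip2 (0.84). Among the members themselves Klf2 and Klf6 had a correlation of 0.81, Klf9 and Klf15 of 0.58, and Klf2 and Klf15 of -0.71.

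Most pairs of a member and a class did not differ between libraries by the rule used, though every member but Klf7 and Klf13 passed somewhere. That rule required a ratio of at least 1.5 either way, an interval excluding 1 and at least 30 UMIs in the library with more. The rule was applied to the 7 classes that reached 200 cells in all 3 libraries, 56 pairs of a member and a class for each comparison. HS was higher than PF in 0 of 54 measured pairs, where 2.01% of all measured gene and class pairs were higher, and lower in 1, where 2.06% were. QS was higher than PF in 1 of 54 pairs (1.93% over all genes) and lower in 1 (3.11%). QS was higher than HS in 2 of 53 pairs (2.5%) and lower in 6 (3.52%). The 6 of 53 was the count farthest above its background. With at least 50 CPM required as well, QS against HS gave 4 of 43 lower (1.43% over all genes) and 2 higher (0.812%). Among the 4 was Klf4 in astrocyte-like cells, at background. QS against PF then gave 1 of 43 lower (0.846%) and 1 higher (0.416%), and HS against PF 0 of 43 either way (0.353% lower and 0.504% higher). The median log2 ratio of the members was 0.04 for HS against PF, -0.07 for QS against PF and -0.11 for QS against HS, beside -0.01, -0.01 and -0.00 over all genes. The first and second comparison share the PF library, and the last shares a library with each.

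**Figure D3:**
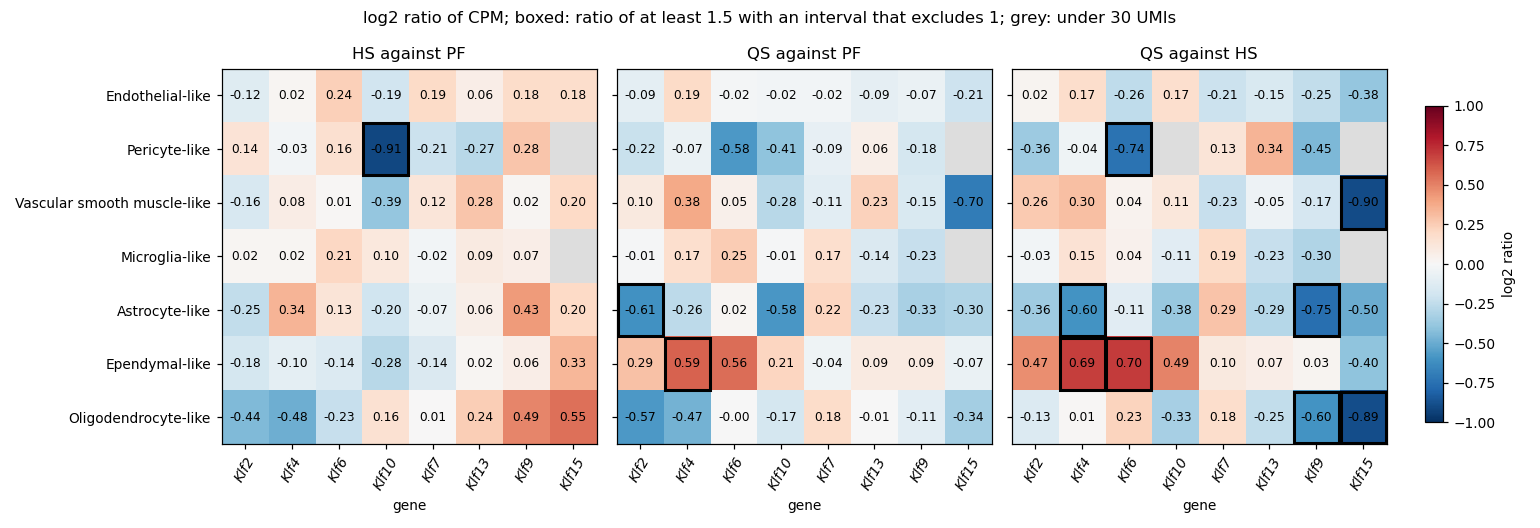
log2 ratio of CPM for each member (columns) in 7 classes (rows) for 3 comparisons, red for higher and blue for lower in the library named first, with values printed in the cells. Boxes mark pairs past the rule, 1 in the left panel, 2 in the middle and 8 in the right, and grey cells had under 30 UMIs in both libraries.

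Klf9 was a little higher in HS than in PF in 7 of these 7 classes, by ratios of 1.01 to 1.40, and none passed the rule. The largest differences were in glia. In oligodendrocyte-like cells Klf9 was at 131 CPM in PF against 184 in HS and 121 in QS, a ratio of HS to PF of 1.40 (1.30 to 1.52). In astrocyte-like cells the ratio was 1.34 (1.2497 to 1.44), in pericyte-like cells 1.21 (1.10 to 1.33) and in endothelial-like cells 1.13 (1.10 to 1.17). The interval included 1 in vascular smooth muscle-like (0.962 to 1.07), ependymal-like (0.998 to 1.10) and microglia-like cells (0.883 to 1.24). Klf13 was above PF in HS in 6 of 7 classes. Among smaller classes Klf9 passed as higher in tanycyte-like cells (1.71) and as lower in border-associated macrophage-like cells (0.659). In QS the Klf9 level lay below PF in 6 of the 7 larger classes, the exception being ependymal-like cells at 1.07 (1.02 to 1.12). The step from HS to QS was therefore the larger: 0.593 (0.553 to 0.636) in astrocyte-like cells and 0.661 (0.617 to 0.709) in oligodendrocyte-like cells, both past the rule. Thinned to 2000 UMIs per cell, Klf9 was seen in 38.5% in PF against 47.8% in HS and 31.7% in QS of astrocyte-like cells (unthinned 52.8%, 65.2% and 47.96%), and in 3.70% in PF against 3.76% in HS and 2.99% in QS of microglia-like cells, where it is at background. The oligodendrocyte-like ratio was 0.677 with classes from Leiden clusters, just outside the rule.

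Klf15 had the same shape at lower counts. Among the 7 classes it reached 30 UMIs in 5, and there it was higher in HS than in PF in 5 of 5, by ratios of 1.13 to 1.46, and lower in QS than in HS in 5 of 5. The interval of the HS to PF ratio excluded 1 only in oligodendrocyte-like cells and in ependymal-like cells, at 1.26 (1.10 to 1.44) in the latter. It included 1 in the other classes, among them astrocyte-like cells at 1.15 (0.982 to 1.34). Klf15 was also below PF in QS in 5 of 5, but the interval of that ratio excluded 1 only in astrocyte-like cells, at 0.812 (0.684 to 0.964). The smaller classes did not all share these directions: fibroblast-like cells had an HS to PF ratio of 0.681 (0.456 to 1.01) and tanycyte-like cells a QS to PF ratio of 1.22 (0.706 to 2.14), both with intervals that include 1. In oligodendrocyte-like cells it had 129 UMIs in PF against 190 in HS and 172 in QS, with ratios of 1.46 (1.16 to 1.84) for HS against PF and 0.541 (0.438 to 0.668) for QS against HS, the latter past the rule. In astrocyte-like cells the QS to HS ratio was 0.707 (0.608 to 0.822) and in ependymal-like cells 0.758 (0.663 to 0.866). In vascular smooth muscle-like cells it was 0.537 (0.287 to 0.961), from 43 UMIs in HS and 17 in QS, and this call was lost under 3 other settings. The endothelial-like value among the 5 is at background.

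The glucocorticoid-induced list differed in the same direction between libraries. Of its 83 measured pairs of a gene and a class, 17 were higher in HS than in PF and 0 lower (2.01% and 2.06% over all genes). In QS against HS 34 of 83 were lower and 1 higher (3.52% and 2.5%), and in QS against PF 15 of 80 were lower and 1 higher (3.11% and 1.93%). Its median log2 ratios were 0.15, -0.37 and -0.21 in that order. This list was chosen with the behaviour of some of its genes in these libraries known, so its direction is no independent evidence. In astrocyte-like cells Fkbp5, a co-chaperone that dampens the glucocorticoid receptor, had an HS to PF ratio of 4.20 (2.67 to 6.92) and a QS to HS ratio of 0.156 (0.0922 to 0.249). Tsc22d3, an anti-inflammatory leucine zipper protein, had 1.58 (1.45 to 1.73) and 0.439 (0.402 to 0.478). In oligodendrocyte-like cells Sgk1, a kinase of ion transport, had 3.03 (2.87 to 3.20) and 0.133 (0.125 to 0.142). Zbtb16, a zinc finger repressor, had its largest ratios in pericyte-like cells, with 12 UMIs in PF against 159 in HS and 5 in QS. Klf9 and Klf15 had smaller ratios in the same classes, but these genes were named for the largest ratios on the list and do not stand for it. In the order of the list medians above, the median log2 ratios over measured classes were 0.18, -0.30 and -0.15 for Klf9. For Klf15 they were 0.20, -0.50 and -0.30.

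Clock output genes differed too, and Klf9 is known to cycle with the day in many tissues. Of 73 measured pairs 7 were lower in HS than in PF and 0 higher, where 2.06% of all pairs were lower. In QS against HS 11 of 73 were higher and 3 lower (2.5% and 3.52% over all genes), and in QS against PF 4 of 74 were higher and 0 lower (1.93% and 3.11%). Dbp, a clock-driven activator, in astrocyte-like cells had an HS to PF ratio of 0.372 (0.319 to 0.434) and a QS to HS ratio of 1.82 (1.56 to 2.13), opposite in direction to Klf9 and Klf15 there. Its QS to PF ratio was 0.679 (0.594 to 0.775) in astrocyte-like cells and 1.94 (1.77 to 2.12) in endothelial-like cells. The part of the hour of collection in the Klf9 and Klf15 ratios was not tested.

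**Figure D4:**
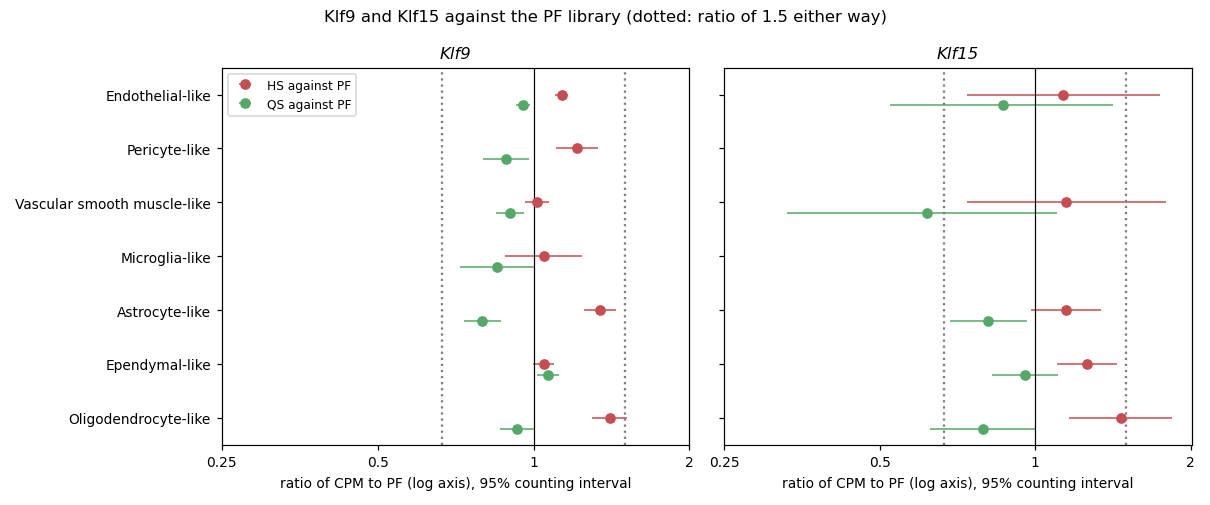
Ratio of CPM to the PF library for Klf9 and Klf15 in each class (log axis), HS in red and QS in green, with exact conditional binomial 95% intervals; dotted lines mark a ratio of 1.5 either way. Every red point of both genes lies above 1 and every green point but Klf9 in ependymal-like cells lies below 1; Klf15 is not drawn where it had under 30 UMIs.

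In ependymal-like cells the early response members Klf4 and Klf6 were highest in QS. Klf4 was at 187 CPM in PF against 175 in HS and 282 in QS, a ratio of 1.51 (1.43 to 1.59) for QS against PF and 1.61 (1.53 to 1.69) for QS against HS. Klf6 was at 329 CPM in PF against 299 in HS and 485 in QS, with 1.48 (1.42 to 1.53) and 1.62 (1.56 to 1.68). The HS to PF ratios were 0.936 (0.886 to 0.988) and 0.91 (0.873 to 0.949). The QS to PF call of Klf4 sits at the edge of the rule and was lost under 3 other settings, with values down to 1.42. Klf2 (1.38 (1.34 to 1.43)) and Klf10 (1.41 (1.26 to 1.58)) were higher in QS than in HS as well, short of the rule. Klf7 (1.07 (0.955 to 1.20)), Klf13 (1.05 (0.963 to 1.14)) and Klf9 (1.02 (0.974 to 1.07)) were not, and Klf15 was lower.

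The gain was spread over cells. Thinned to 2000 UMIs per cell, Klf4 was seen in 26.1% in PF against 22.97% in HS and 35.1% in QS of ependymal-like cells (unthinned 59.1%, 59.3% and 69.8%), and Klf6 in 32.9% in PF against 31.9% in HS and 45.7% in QS (unthinned 63.4%, 66.7% and 73.4%). In astrocyte-like cells, where both are at background, the thinned shares were 10.3% in PF against 9.90% in HS and 6.24% in QS for Klf4 and 10.9% in PF against 10.98% in HS and 10.9% in QS for Klf6. Median UMIs per cell before thinning were 9384, 10240.0 and 10420.0 in ependymal-like and 3564, 3928 and 3726 in astrocyte-like cells, and 109, 56 and 96 ependymal-like cells were too shallow to thin. The 1% of ependymal-like cells with the most Klf4 UMIs held 8.96 to 10.4% of them. Klf4 in this class was 25.2 to 38.9% and Klf6 39.7 to 63.8% of the whole-library level, while the endothelial genes stood at 7.29 to 7.66% and the microglial genes at 6.89 to 10.2%, so their levels lay above that floor. Endothelial marker RNA in this class was nearly the same in HS and QS and microglial marker RNA was lower in QS, with 7.65% and 7.66% for the endothelial set and 10.05% and 6.89% for the microglial set in HS and QS. The part of free RNA in the ependymal-like ratios was not tested.

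Immediate early genes differed in the same direction. Of the 16 listed, 12 were higher in QS than in HS in ependymal-like cells and 0 lower, against 58 and 21 of all 4634 genes of at least 50 CPM in that class. Fos was at 2023 CPM in HS and 3485 in QS, a ratio of 1.72 (1.70 to 1.75). Atf3, a stress-induced repressor, had 1.94 (1.89 to 1.99), and Nr4a1, an orphan nuclear receptor, 1.95 (1.86 to 2.05). Fosl2, Egr3, Ier3 and Ier5 stayed short of the rule. Outside ependymal-like cells 0 of the list's other 95 measured pairs were higher in QS than in HS and 4 were lower, beside 2.5% and 3.52% over all genes. Among the 4 was Fos in astrocyte-like cells at 0.543 (0.516 to 0.571). Warm dissociation of tissue is known to induce immediate early genes, and its part in the ependymal-like values was not tested.

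**Figure D5:**
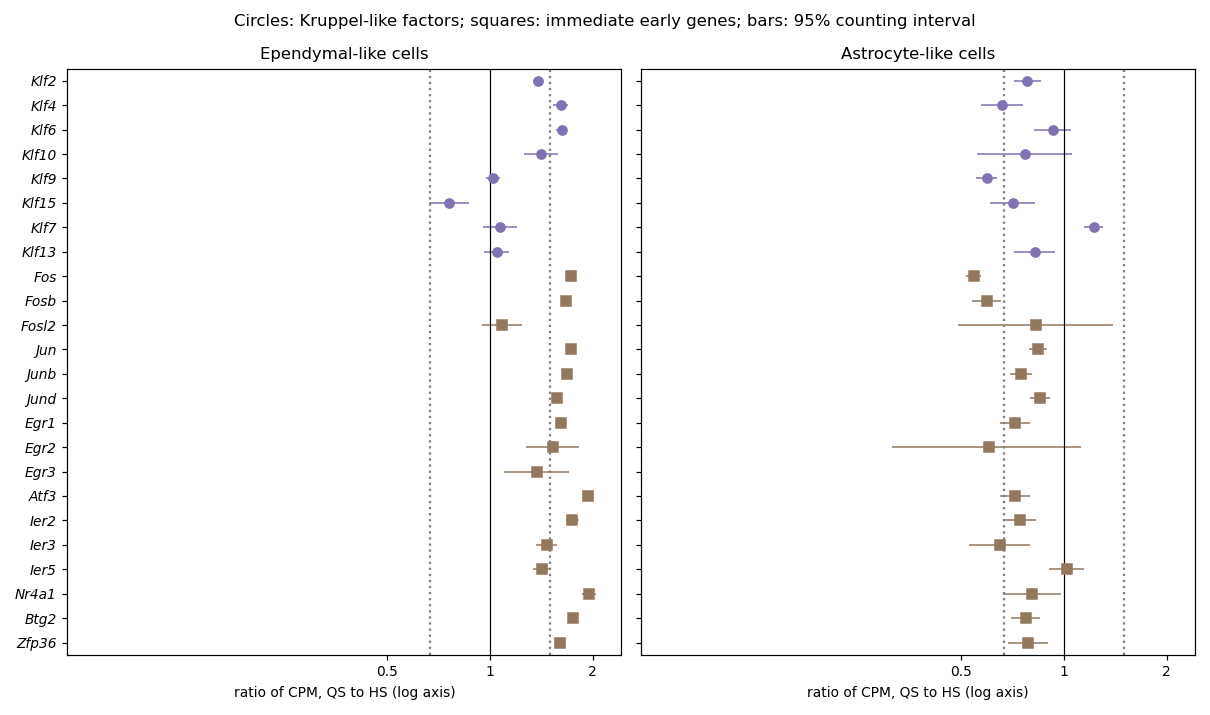
Ratio of CPM, QS to HS (log axis), for the 8 members (circles) and the immediate early list (squares) in ependymal-like and astrocyte-like cells, with exact conditional binomial 95% intervals and dotted lines at a ratio of 1.5 either way. In ependymal-like cells Klf2, Klf4, Klf6 and Klf10 and most squares lie above 1, in astrocyte-like cells most lie below.

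In endothelial-like cells, which held most Klf2 and Klf4 RNA, 0 of 8 members passed the rule in any comparison. Of all genes measured there, 1.45 to 5.08% passed in a given direction, depending on the comparison. Klf2 had a QS to PF ratio of 0.937 (0.928 to 0.945), Klf4 of 1.14 (1.13 to 1.16), and Klf6 an HS to PF ratio of 1.18 (1.16 to 1.20). The genes upstream of the pair (the kinases Map3k2, Map3k3, Map2k5 and Mapk7, the Mef2 factors, the cerebral cavernous malformation proteins and the flow sensor Piezo1) showed 0 calls among 83 measured pairs in each comparison. Over all genes and classes, 1.93 to 3.52% of measured pairs passed in a given direction. With at least 50 CPM that share was 0.353 to 1.43%. Of 10 genes that Klf2 or Klf4 is known to raise in endothelium, 0 were called in HS against PF in endothelial-like cells and 2 were lower in QS against PF, where 1.45% and 3.34% of all genes measured in endothelial-like cells were lower. Nos3, the endothelial nitric oxide synthase, stood at 176 CPM in PF with a QS to PF ratio of 0.9999 (0.962 to 1.04), and Thbd, the anticoagulant thrombomodulin, had 1.06 (1.02 to 1.11). The lower pair were Slco2a1, a prostaglandin carrier, at 0.535 (0.446 to 0.639), and Aqp1, a water channel, from 107 UMIs in PF to 5 in QS. Of 8 genes that the pair is known to hold down, 2 were lower in HS than in PF and 3 lower in QS than in PF. Slco2a1, Aqp1, Ccl2 and Sele were all under 50 CPM. Those called on the second list were Vcam1, a leukocyte adhesion molecule, at 0.595 (0.582 to 0.609) and 0.585 (0.571 to 0.6), the chemokine Ccl2 at 0.496 (0.414 to 0.593) and 0.344 (0.273 to 0.429), and, in QS only past the rule, the adhesion molecule Sele at 0.344 (0.278 to 0.422). Venous cells, in which both adhesion molecules are known to be most abundant, made up 9.57% of endothelial-like cells in PF against 9.91% in HS and 5.76% in QS, and the part of that share was not tested.

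Among mural cells, Klf6 in pericyte-like cells was at 273 CPM in PF against 305 in HS and 183 in QS, a QS to HS ratio of 0.6 (0.521 to 0.689) that passed the rule and a QS to PF ratio of 0.67 (0.583 to 0.77) that missed it narrowly. PF lay nearer to HS than to QS. With a stricter marker gate the QS to HS ratio was 0.679 and no longer passed. Klf10 in the same cells had 41 UMIs in PF and 19 in HS, 19.7 CPM in PF against 10.5 in HS and 14.8 in QS, a ratio of 0.532 (0.292 to 0.938), the single call of HS against PF. It did not pass with classes from Leiden clusters or with the stricter gate, where the ratios were 0.763 and 0.593. In vascular smooth muscle-like cells Klf4 was higher in QS, at 1.30 (1.24 to 1.36) against PF, short of the rule. In microglia-like cells none of the 7 members with at least 30 UMIs passed in any comparison, and Klf6 showed the largest of their HS to PF ratios at 1.16 (1.14 to 1.18). Of all genes with at least 50 CPM there, 0.169 to 0.594% passed in a given direction.

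The remaining calls fell on levels that are at background. Klf2 in astrocyte-like cells was 197 CPM in PF against 166 in HS and 129.8 in QS, with a QS to PF ratio of 0.657 (0.595 to 0.726), and Klf4 there was 64.7 CPM in PF against 81.7 in HS and 53.9 in QS, with a QS to HS ratio of 0.659 (0.571 to 0.759). The 1% of astrocyte-like cells with the most Klf4 UMIs held 22.8 to 47.3% of them, and for Klf2 23.1 to 26.2%. Endothelial-like cells, the main holders of both RNAs, numbered 4084 in PF against 3875 in HS and 3262 in QS, and the part of free RNA in these calls was not tested further.

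Klf7 and Klf13 passed the rule in 0 of 7 classes in each comparison. Beside this count and those of the lists below, 1.93 to 3.52% of all measured gene and class pairs passed in a given direction. With at least 50 CPM that share was 0.353 to 1.43%. Klf7 ranged over ratios of 0.853 to 1.22 and Klf13 of 0.820 to 1.26 across all 3 comparisons. Of the other KLF and SP family genes (18 listed), 1 of 66 measured pairs was higher and 1 lower in HS against PF, 0 and 1 of 65 in QS against PF, and 3 and 2 of 65 in QS against HS. The pairs past the rule were at low levels, such as Klf11, a TGF-beta inducible relative of Klf10, in pericyte-like cells with 68 UMIs in PF and 32 in QS, and Klf5, an activator of proliferation, in vascular smooth muscle-like cells with 19 in PF and 35 in HS. Corepressors and coactivators that KLFs recruit (Sin3a, Sin3b, the deacetylases Hdac1 to Hdac3, the Ctbp proteins, Ep300, Crebbp and Kat2b) showed 0 calls among 70 pairs in each comparison. TGF-beta response genes were lower in 3 of 65 pairs in HS against PF and in 5 of 65 in QS against PF, with 0 higher in both, where 2.06% and 3.11% of all measured pairs were lower. In QS against HS 4 of 65 were higher and 1 lower, beside 2.5% and 3.52%. Ccn2, a matricellular protein, in oligodendrocyte-like cells went from 52 UMIs in PF to 18 in HS. Amino acid and fuel genes downstream of Klf15 gave 1 lower of 26 in HS against PF, 0 of 25 in QS against PF and 1 higher of 25 in QS against HS, both calls being Slc2a4, the insulin-regulated glucose transporter, at 24 to 48 UMIs.

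In the 4 classes of 50 or more cells per library that did not always reach 200, calls were more frequent for all genes, and a call there also required 50 CPM. Among the 11 classes of at least 50 cells per library, tanycyte-like cells showed the largest Klf2 ratio. Klf2 was at 565 CPM in PF against 1359 in HS and 1434 in QS, ratios of 2.40 (2.22 to 2.60) for HS and 2.54 (2.33 to 2.76) for QS against PF. Klf6 was at 503 CPM in PF against 809 in HS and 1038 in QS, with 1.61 (1.48 to 1.75) and 2.06 (1.88 to 2.26). Klf4 passed in QS against PF (1.76 (1.52 to 2.04)) and Klf9 in HS against PF (1.71 (1.51 to 1.93)). PF is the low library for all 4 genes. So 3 of 6 measured members were higher in each comparison with PF, where 4.78% (HS) and 3.81% (QS) of genes were. Over all settings tried the Klf2 ratio ran from 1.95 to 2.43 for HS and from 1.94 to 2.63 for QS. The Klf6 ratio of HS to PF went down to 1.48, under the rule. Immediate early genes were higher in 10 of 14 in HS and in 13 of 14 in QS against PF. The part of tissue dissociation in the tanycyte-like values was not tested. Endothelial marker RNA in these cells was at 8.34%, 7.98% and 5.18% of the whole-library level in PF, HS and QS, and microglial marker RNA at 5.79%, 9.48% and 4.96%. The part of free RNA of either kind in the tanycyte-like ratios was not tested. Of tanycyte-like cells 13.8% lay near the edge of the gate, more than in any other class of at least 50 cells per library, and PF held only 114.

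Border-associated macrophage-like cells carried more Klf2 and Klf4 in QS. The QS to PF ratio was 1.77 (1.70 to 1.83) for Klf2 and 1.70 (1.59 to 1.81) for Klf4, where 4.46% of genes were higher and 6.02% lower, and Klf6 was at 1.246 (1.20 to 1.29). Against HS the QS ratio was 1.61 (1.55 to 1.67) for Klf2 and 1.63 (1.52 to 1.74) for Klf4, where 3.8% of genes were higher. The HS to PF ratios of Klf2, Klf4 and Klf6 were 1.10, 1.04 and 1.16. Klf10 passed as lower in QS than in HS at 0.649 (0.426 to 0.967), where 5.86% of genes were lower. That call rested on 92 UMIs in HS and 35 in QS. Klf9 was lower in both HS and QS than in PF (1.54% of genes were lower in HS than in PF). Its ratios against PF were 0.659 (0.495 to 0.871) for HS and 0.569 (0.389 to 0.814) for QS. Klf9 levels were 64.3 CPM in PF against 42.4 in HS and 36.6 in QS. The 1% of these cells with the most Klf9 UMIs held 29.3% of them in PF against 9.33% in HS and 15.8% in QS, so a few PF cells weigh on these ratios. The levels are 15.01 to 27.3% of the whole-library level. Immediate early genes in these cells were higher in 1 of 15 in QS against PF. Fibroblast-like cells in QS numbered 65 against 301 in PF and 314 in HS, and 11.2% of genes were higher and 12.5% lower in QS than in PF. Klf9 was at 689 CPM in PF against 765 in HS and 309.6 in QS, Klf2 at 1696 CPM in PF against 2017 in HS and 1028 in QS, and both passed as lower in QS, with Klf10 and Klf13. In T or NK-like cells, 53 to 91 per library, Klf7 was lower in HS than in PF at 0.472 (0.271 to 0.813), where 5.14% of genes were lower, and in QS than in PF at 0.601 (0.363 to 0.998), where 5.64% were.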

How the data were processed

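Hypothalami had been digested with collagenase II and their cells loaded on the 10x Genomics platform (3′ chemistry, version 3), per the labels. The authors deposited UMI counts for every gene and barcode, produced by Cell Ranger on mm10. Version 5.0.0 stands in the submitters' processing notes, together with Seurat 3.1.2, but version 7.0.1 stands in the headers of the matrices. No source used here says whether intronic reads were counted.

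Barcodes with at least 500 UMIs, 200 genes and at most 20% mitochondrial UMIs were kept, which removed 194 to 211 per library. A cell joined the class whose markers (UMIs per 10000, each scaled to its 90th percentile and capped at 1) averaged highest, if 3 of them were detected and the next class scored at most 0.6 of the best. This left 9.44% to 10.8% of cells without a class, among them 312 to 385 of the 672 to 765 doublets that Scrublet called per library. The gate's thresholds were set after the data had been seen. Counts were summed per class and library. CPM carry exact Poisson 95% intervals and ratios exact conditional binomial ones, which cover counting error only; no p-value is given. On simulated counts, known changes larger than the limit of the rule were recovered and intervals covered as intended. Those counts held counting error only, as the intervals assume, so they do not check differences between cells, captures or mice.

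The members, gene lists and rules were chosen with earlier results of these data known. Genes named beyond the members are the 3 most alike each member, up to 4 per list with the largest ratios, and others chosen after their values were seen: genes that did not pass in endothelial-like cells, and Fos, Sgk1, Dbp and Slc2a4 where shown beside a member. Software was Python 3.11.15, Scanpy 1.11.5, NumPy 2.4.6, SciPy 1.17.1 and pandas 2.3.3. Alternatives covered filters, doublets, classes, scaling, free RNA and the rule itself.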

Additional observations from a re-analysis of the deposited data

Results flagged for a closer look

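Klf4 went opposite ways in 2 classes between HS and QS. It was higher in QS in ependymal-like cells and lower in astrocyte-like cells, so that the ratio in the former over the ratio in the latter was 2.44. In astrocyte-like cells Klf4 was at the level of free RNA. Klf6 was higher in QS than in HS in ependymal-like cells and lower in pericyte-like cells, and there the ratio of ratios was 2.70. With 1 library in each group, these differences between classes were not tested.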

How the results depend on the processing

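No paired analysis was possible because each group has 1 library, and no replicate could be left out. The counts of member and class pairs past the rule kept within 1.5 times of the reported value under most alternatives. In HS against PF (1 pair) the count was 0 with classes from Leiden clusters and 0 with a stricter gate (4 markers, next class at most 0.4), 4 after subtracting free RNA at 5% and 8 with a lower limit on the ratio. In QS against PF (2 pairs) it was 4 with Scrublet calls removed, 4 without mitochondrial, ribosomal protein and haemoglobin genes, 8 after subtracting free RNA and 9 with that lower limit. An alternative chosen after seeing the data kept only pairs at 20% or more of the whole-library level and gave 1 there. In QS against HS (8 pairs) it was 17 with that lower limit. Of the 11 calls over the 3 comparisons, 7 held with Leiden classes, 7 with the stricter gate, 9 without Scrublet calls and 10 with at most 10% mitochondrial UMIs. Those that held under every planned setting were Klf2 and Klf9 in astrocyte-like, Klf4 and Klf6 in ependymal-like (QS against HS) and Klf15 in oligodendrocyte-like cells, of which the Klf2 call did not meet the 20% limit. Klf9 was above PF in HS in 5 of 7 classes with Leiden classes and in 6 of 7 without Scrublet calls or after subtracting free RNA. For Klf15 it was 4 of 5 after that subtraction. The cause of these shifts was not tested. Depth limits Klf15 and Klf10 most, with under 50 UMIs in some classes.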

Other observations

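Classes with under 50 cells in at least 1 library were not compared, and their levels are given as values only. Neutrophil-like cells had 3961 CPM in PF against 5003 in HS and 4669 in QS of Klf2, from 11, 39 and 17 cells, and 0 UMIs of Klf15. B-like cells had 2976 CPM in PF against 2551 in HS and 3381 in QS of Klf2, a gene known to keep lymphocytes at rest, from 32, 32 and 60 cells, and likewise 0 UMIs of Klf15. Monocyte or dendritic-like cells had 1726 CPM in PF against 1203 in HS and 1299.6 in QS of Klf6, from 24, 43 and 19 cells. In neuron-like cells (46, 38 and 59 cells) Klf7 was at 191 CPM in PF against 189.5 in HS and 177 in QS, Klf9 at 217 CPM in PF against 180.1 in HS and 142 in QS and Klf2 at 471 CPM in PF against 126 in HS and 93.1 in QS. Pituitary or pars tuberalis-like cells were found in PF (76 cells) and HS (49 cells), where Klf9 was at 309 and 371 CPM.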
